A study of Arabidopsis thaliana with 15 samples.

Results

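The gibberellin oxidase genes are 10 Arabidopsis genes chosen by their identifiers, which were found as rows in a table of 33024 genes. They are 4 synthesis genes (GA20OX1, GA20OX2, GA20OX3 and GA3OX1) and 6 inactivation genes (GA2OX1, GA2OX2, GA2OX4, GA2OX6, GA2OX7 and GA2OX8). Transcripts were measured by RNA-seq of leaves from greenhouse plants of the Columbia ecotype, 21 days after germination, grown in long days. The 5 genotypes, with 3 libraries each, were the mutant pp1r3-2, the mutant topp4-1, the septuple mutant topp-7m, the double mutant pp1r3-2 topp4-1 and the wild type. TOPP genes encode catalytic subunits of plant type 1 protein phosphatase, and PP1R3 is described by the series as their regulatory partner. The labels give neither the lesion of any allele nor the mutated genes of topp-7m. Whether replicate libraries were made from different plants is also not given, and the p-values therefore rest on a spread that may be technical.

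Gibberellins are growth hormones whose last synthesis steps and first inactivation step are carried out by related soluble dioxygenases. GA20-oxidases act on precursors in successive oxidations, GA3-oxidases convert their products to the active hormone, and GA2-oxidases inactivate either the active hormone (GA2OX1, GA2OX2, GA2OX4 and GA2OX6) or its earlier precursors (GA2OX7 and GA2OX8). In Arabidopsis, active hormone bound to a GID1 receptor leads to the loss of DELLA repressor proteins, and low signalling is known to raise GA20OX and GA3OX1 transcripts and to lower those of several GA2OX genes. TOPP4 has been described as a phosphatase that acts on DELLA proteins.

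Library totals ran from 17962200 to 20756997 counts. The TOPP4 transcript averaged 36.8 ± 1.90 CPM (read counts scaled to library size with TMM factors, mean ± SD, n = 3) in topp4-1 and 5.44 ± 0.342 CPM in topp-7m, against 30.8 ± 1.83 CPM in wild type. The 4 leaf markers summed to between 10532 and 29050 CPM per library, while the 4 root markers summed to at most 0.354 CPM and the 4 seed markers to at most 0.229 CPM. Double mutant replicate 3 stood apart in meristem markers (STM, WUS, CLV3 and KNAT1), which summed to 0.395 CPM there, against 16.5 and 20.4 CPM in the other double mutant libraries. In bulk leaf RNA, fewer cells of a type and less RNA per cell cannot be told apart.

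Of the 10 genes, 7 had enough counts to be tested among 20037 genes. GA20OX2, GA2OX1 and GA2OX7 did not. GA20OX3 and GA2OX4 reached the count minimum through topp4-1, where they were high, so counts over the tested genes describe the set and are no support for a change, and their p-values in comparisons with topp4-1 come from genes that topp4-1 brought into the test. Levels compared between genes are CPM per kb of gene length. On that scale GA2OX6 was the highest in wild type, at 15.8 ± 3.08 CPM per kb, followed by GA2OX2 at 6.13 ± 0.551 and GA3OX1 at 2.37 ± 0.390. GA2OX8 (0.950 ± 0.252) and GA20OX1 (0.916 ± 0.480) overlapped each other, and the other 5 genes averaged 0.205 CPM per kb or less in wild type. In topp4-1 the order of the leading pair was turned round, with GA2OX2 at 8.79 ± 1.13 and GA2OX6 at 4.64 ± 0.693 CPM per kb.

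**Figure D1:**
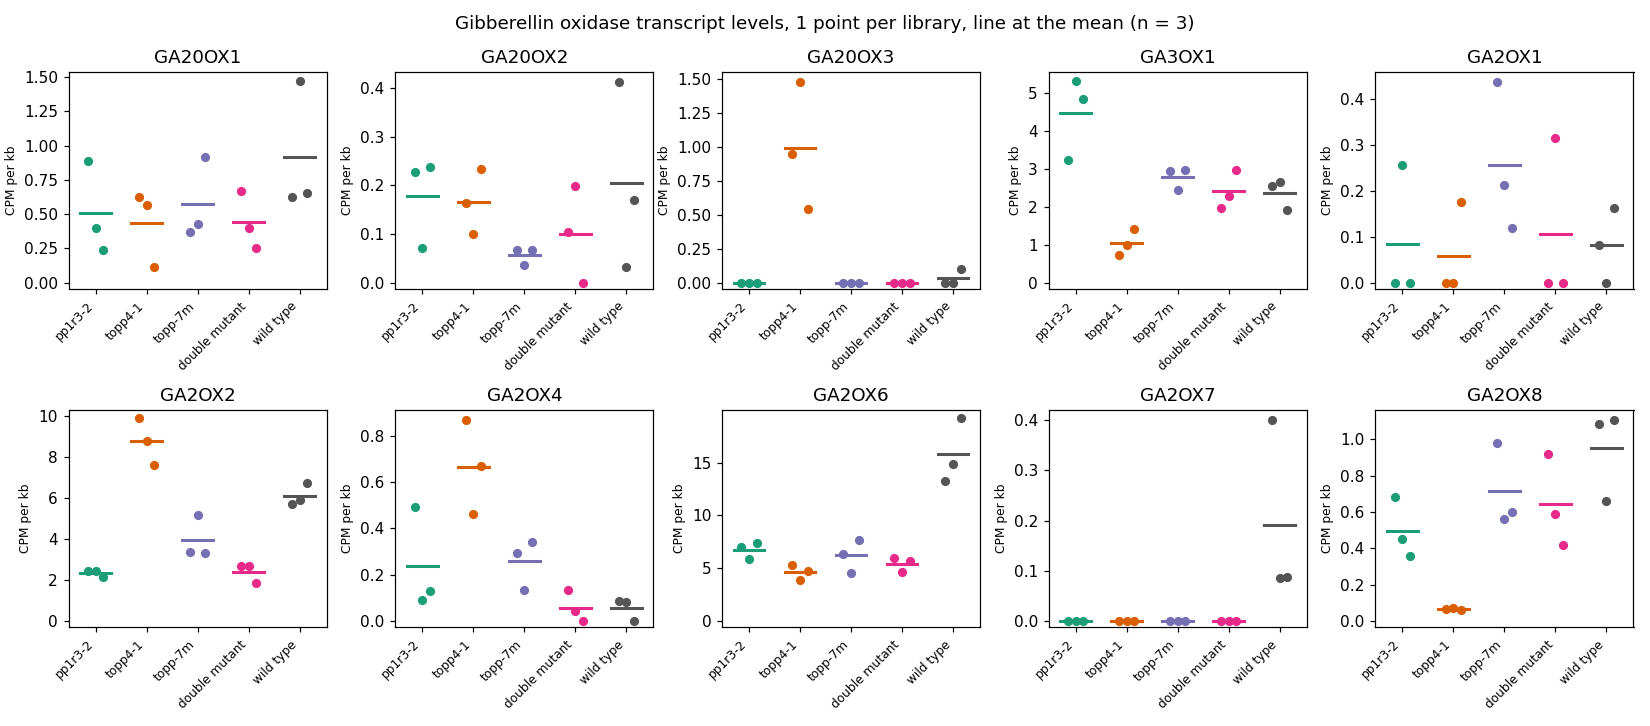
Levels of the 10 gibberellin oxidase genes in CPM per kb (vertical axis, a separate scale for each gene) for the 4 mutant genotypes and wild type, with 1 point per library and a line at the mean. GA2OX6 was highest in the 3 wild-type libraries, GA20OX3 was high in topp4-1 and at 0 in pp1r3-2, topp-7m and the double mutant, and GA2OX7 had counts in wild type alone.

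Sequence just before the annotated transcript start (300 bases, RefSeq TAIR10.1, in which all 10 genes have the coordinates of the count table) was searched on both strands for TTTGTC, the core bound by INDETERMINATE DOMAIN proteins in maize, for the G-box CACGTG and for the core CCGAC of the element bound by DREB factors. TTTGTC was found in 6 of the 10 windows, against 28.1% of 27438 protein-coding windows, CACGTG in 1 of 10 (GA2OX4), against 7.09%, and CCGAC in 0 of 10, against 13.9%. No match says only that these letters are not in this window. The windows of GA3OX1 and GA20OX3 are shown because these synthesis genes moved in opposite directions in topp4-1, and those of GA2OX6 and GA2OX4 because these inactivation genes did so too. All read 5′ to 3′ towards the gene, with matches in capitals.
GA3OX1 (chr1:5346343-5346642, minus strand): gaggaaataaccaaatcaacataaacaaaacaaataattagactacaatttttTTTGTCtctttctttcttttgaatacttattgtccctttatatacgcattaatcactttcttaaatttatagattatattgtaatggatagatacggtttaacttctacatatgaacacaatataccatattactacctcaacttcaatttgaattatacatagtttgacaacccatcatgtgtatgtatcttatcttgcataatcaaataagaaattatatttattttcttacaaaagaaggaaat
GA20OX3 (chr5:2245340-2245639, minus strand): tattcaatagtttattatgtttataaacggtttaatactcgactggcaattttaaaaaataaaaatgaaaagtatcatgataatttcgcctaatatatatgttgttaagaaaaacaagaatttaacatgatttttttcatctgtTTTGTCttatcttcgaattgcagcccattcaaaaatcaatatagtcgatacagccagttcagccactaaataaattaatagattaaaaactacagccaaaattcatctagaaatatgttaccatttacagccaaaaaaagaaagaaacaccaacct
GA2OX6 (chr1:486500-486799, plus strand): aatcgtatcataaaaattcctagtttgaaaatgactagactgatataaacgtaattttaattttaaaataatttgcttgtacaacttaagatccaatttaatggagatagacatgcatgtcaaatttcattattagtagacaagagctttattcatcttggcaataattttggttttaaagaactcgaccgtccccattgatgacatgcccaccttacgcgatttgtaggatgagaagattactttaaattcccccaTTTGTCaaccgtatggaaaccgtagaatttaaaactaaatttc
GA2OX4 (chr1:17698298-17698597, plus strand): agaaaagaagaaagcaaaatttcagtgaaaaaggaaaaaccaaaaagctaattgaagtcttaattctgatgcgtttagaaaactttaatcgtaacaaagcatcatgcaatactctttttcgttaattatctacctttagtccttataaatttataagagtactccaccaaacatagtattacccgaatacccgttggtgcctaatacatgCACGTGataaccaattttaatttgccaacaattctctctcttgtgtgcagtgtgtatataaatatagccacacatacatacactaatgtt
GA3OX1, GA20OX3 and GA2OX6 each hold 1 TTTGTC, which begins 247, 156 and 43 bases before the start, and GA2OX4 holds 1 CACGTG, 90 bases before it. These matches do not sort the genes by the direction of their change, and they are a description of the letters, not binding sites.

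Among the synthesis genes, GA3OX1 (AT1G15550, chromosome 1, 5344388 to 5346342, minus strand), the enzyme of the last activating step, moved in opposite directions in the single mutants. It had 4.91, 8.09 and 7.36 CPM in pp1r3-2 and 1.12, 1.50 and 2.15 CPM in topp4-1, against 3.86, 4.02 and 2.92 CPM in wild type. All pp1r3-2 libraries were above and all topp4-1 libraries below the wild-type range. The log2 fold change was 0.91 ± 0.25 (SE) in pp1r3-2 (adjusted p = 0.0187, edgeR quasi-likelihood test with Benjamini-Hochberg adjustment, as for all adjusted p-values here) and -1.17 ± 0.27 in topp4-1 (adjusted p = 0.00193). Leaving out pp1r3-2 replicate 2 (adjusted p = 0.0751), pp1r3-2 replicate 3 (0.0684) or wild-type replicate 3 (0.0859) ended the pp1r3-2 call, and the topp4-1 call was kept in every alternative fit. GA3OX1 had 4.47, 3.72 and 4.50 CPM in topp-7m and 3.00, 3.45 and 4.52 CPM in the double mutant. Both sets overlapped wild type, with changes of 0.23 ± 0.25 (adjusted p = 0.621) and 0.02 ± 0.26 (adjusted p = 0.969).

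GA20OX3 (AT5G07200, chromosome 5, 2243553 to 2245339, minus strand), a GA20-oxidase, had 30, 46 and 19 counts in the topp4-1 libraries, against 0, 0 and 3 counts in wild type. It had 0 counts in all 9 libraries of pp1r3-2, topp-7m and the double mutant. Summed over libraries, the topp4-1 level was 29.6 times that of wild type (95% exact interval 9.81 to 146, which covers counting error only). All 3 wild-type counts lay in replicate 3. Without that library the topp4-1 level was 19.8-fold higher, with 3 counts over the group in place of 0 and the topp4-1 counts taken as exact. The fitted log2 change of 4.74 ± 0.90 ran from 4.20 to 7.92 when a library was left out. Its adjusted p was 0.00148, 0.00113 without any count minimum and 0.368 in DESeq2. Against topp4-1 the level was 28.8-fold lower in the double mutant and 29.3-fold lower in topp-7m. These folds set 3 counts over the group in place of 0 and take the topp4-1 counts as exact.

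The other GA20-oxidases were low and showed no called change. GA20OX1 (AT4G25420, chromosome 4, 12990851 to 12992585, minus strand) had 0.371 to 1.37 CPM in pp1r3-2, 0.183 to 0.966 CPM in topp4-1, 0.572 to 1.41 CPM in topp-7m and 0.395 to 1.04 CPM in the double mutant, against 0.965 to 2.27 CPM in wild type. Each mutant range overlapped wild type, and the changes ran from -1.08 ± 0.60 in topp4-1 (adjusted p = 0.143) to -0.67 ± 0.59 in topp-7m (adjusted p = 0.519). GA20OX2 (AT5G51810, chromosome 5, 21055179 to 21056881, minus strand) had 0 to 12 counts per library and was too low to test.

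Among the inactivation genes, GA2OX6 (AT1G02400, chromosome 1, 486800 to 489651, plus strand) fell in every mutant genotype. Its levels were 10.5, 8.76 and 11.0 CPM in pp1r3-2, 7.88, 5.83 and 7.13 CPM in topp4-1, 9.51, 6.83 and 11.5 CPM in topp-7m and 8.89, 6.96 and 8.47 CPM in the double mutant, against 19.8, 22.2 and 28.8 CPM in wild type. Each of the 12 mutant libraries lay below the lowest wild-type library. The log2 changes were -1.22 ± 0.19 in pp1r3-2 (adjusted p = 0.000377), -1.76 ± 0.19 in topp4-1 (2.17e-06), -1.34 ± 0.19 in topp-7m (0.00031) and -1.54 ± 0.19 in the double mutant (0.000103). All 4 calls were kept in every alternative fit. These comparisons share the same 3 wild-type libraries.

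GA2OX2 (AT1G30040, chromosome 1, 10537457 to 10540044, plus strand), which also inactivates the active hormone, did not follow GA2OX6 in topp4-1. It had 5.77, 5.86 and 5.14 CPM in pp1r3-2, 23.6, 21.0 and 18.2 CPM in topp4-1, 8.01, 12.3 and 7.91 CPM in topp-7m and 6.43, 6.39 and 4.46 CPM in the double mutant, against 13.7, 14.0 and 16.1 CPM in wild type. The topp4-1 libraries were all above wild type and the other 9 mutant libraries all below it. GA2OX2 fell by 1.38 ± 0.18 on the log2 scale in pp1r3-2 (adjusted p = 0.000123), by 1.34 ± 0.18 in the double mutant (adjusted p = 0.000235) and by 0.63 ± 0.18 in topp-7m (adjusted p = 0.0295), and it rose by 0.52 ± 0.17 in topp4-1 (adjusted p = 0.0188). Leaving out topp4-1 replicate 1 (adjusted p = 0.105) or 2 (0.0537), or wild-type replicate 1 (0.0775) or 2 (0.059), ended the topp4-1 call. For topp-7m the call ended on leaving out topp-7m replicate 1 (0.0999) or 3 (0.129), or wild-type replicate 2 (0.0633) or 3 (0.114), and on fitting the compared libraries alone (0.0616).

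GA2OX8 (AT4G21200, chromosome 4, 11302682 to 11306770, plus strand), which acts on precursors, had 2 counts in each topp4-1 library, against 30, 19 and 31 counts in wild type. It fell by 3.75 ± 0.52 on the log2 scale in topp4-1 (adjusted p = 2.25e-05). In the other mutants it had 0.530 to 1.01 CPM in pp1r3-2, 0.833 to 1.46 CPM in topp-7m and 0.621 to 1.36 CPM in the double mutant, against 0.980 to 1.65 CPM in wild type, and none of these passed the test (adjusted p = 0.115, 0.550 and 0.359). GA2OX4 (AT1G47990, chromosome 1, 17698598 to 17701041, plus strand) went the other way in topp4-1, with 21, 11 and 18 counts, against 2, 2 and 0 counts in wild type (log2 change 3.43 ± 0.82, adjusted p = 0.00246, and 0.00342 without the count minimum that it met through topp4-1). It had 12, 2 and 3 counts in pp1r3-2, 7, 3 and 8 counts in topp-7m and 3, 1 and 0 counts in the double mutant. The pp1r3-2 and topp-7m libraries were all above the wild-type range in CPM, but their changes of 1.98 ± 0.94 and 2.08 ± 0.93 did not pass (adjusted p = 0.157 and 0.170). The lowest pp1r3-2 library and the highest wild-type library both had 2 counts, so they differed by scaling alone (0.112 and 0.107 CPM).

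GA2OX7 (AT1G50960, chromosome 1, 18889473 to 18891838, plus strand), the other enzyme of the precursor-acting class, had 9, 2 and 2 counts in wild type and 0 counts in all 12 mutant libraries. With 3 counts over the group in place of 0 and the wild-type counts taken as exact, its level was lower than in wild type in each mutant. The fold was 4.31 in pp1r3-2, 4.64 in topp4-1, 4.29 in topp-7m and 4.23 in the double mutant. Wild-type replicate 1 held 9 of the 13 counts, and without it these folds were 1.97, 2.13, 1.97 and 1.94. They leave out counting error in wild type, which then had 4 counts, and are not lower limits of the change. The gene was below the count minimum. In the fit without that minimum it passed in topp4-1 (adjusted p = 0.032) and not in pp1r3-2 (0.0806), topp-7m (0.109) or the double mutant (0.102). The unadjusted edgeR p-values were close, at 0.0118 in topp4-1, 0.0134 in pp1r3-2, 0.0136 in topp-7m and 0.0139 in the double mutant. The split in calls therefore came from the adjustment over all genes and not from the counts. GA2OX1 (AT1G78440, chromosome 1, 29511561 to 29513100, minus strand) had 0 to 11 counts per library, highest in topp-7m with 11, 5 and 3 counts, against 2, 0 and 4 counts in wild type, and had no call without the minimum (adjusted p = 0.562 in topp-7m).

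By count, pp1r3-2 had 3 calls among the 7 tested genes, 1 higher and 2 lower, in a comparison where 19.3% of all genes were called, 10.9% higher and 8.33% lower. In topp4-1 there were 6 calls, 3 higher and 3 lower, beside 53.5% of all genes (27% higher, 26.5% lower), so a large share is also the background there. The higher calls include GA20OX3 and GA2OX4, which reached the count minimum through topp4-1. In topp-7m there were 2 calls, both lower, beside 11.6% of all genes (6.18% higher, 5.46% lower). The double mutant also had 2, both lower, beside 13.1% (7.66% higher, 5.47% lower). The median log2 change of the tested genes with a fold was -0.88 in pp1r3-2, -1.08 in topp4-1, -0.52 in topp-7m and -0.80 in the double mutant, against medians of 0.00 to 0.01 in size over all genes. These medians mix synthesis and inactivation genes. That of topp4-1 is the value of GA20OX1, which was not called, and the calls there were evenly split in direction.

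**Figure D2:**
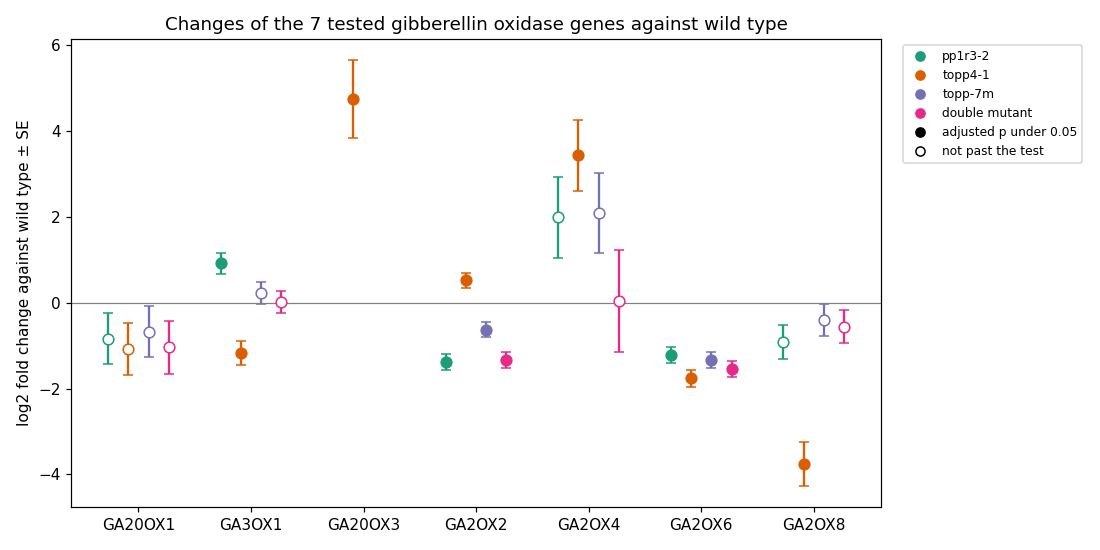
Log2 fold change against wild type with its standard error (vertical axis) of the 7 tested gibberellin oxidase genes in the 4 mutant genotypes. Filled points passed an adjusted p of 0.05, and GA20OX3 is drawn for topp4-1 alone because both groups were at 3 counts or fewer in the other comparisons. GA2OX6 lies between -1.76 and -1.22 in all 4, whereas topp4-1 stands apart from the others at GA3OX1, GA2OX2 and GA2OX8.

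To set synthesis against inactivation, CPM per kb was summed over the 4 synthesis and the 6 inactivation genes in each library, as a description without a test. GA3OX1 made up 71.7 to 92.1% of the synthesis sum in pp1r3-2, topp-7m and the double mutant and 29.7 to 61.2% in topp4-1, against 63.8 to 71.0% in wild type. GA2OX2 and GA2OX6 together made up 85.0 to 96.2% of the inactivation sum across the 15 libraries. The inactivation sum was 9.91 ± 0.766 CPM per kb in pp1r3-2, 14.2 ± 1.63 in topp4-1, 11.4 ± 0.713 in topp-7m and 8.64 ± 0.924 in the double mutant, against 23.2 ± 3.62 in wild type. Every mutant library was below every wild-type library. The synthesis sum was 5.15 ± 0.738 CPM per kb in pp1r3-2, 2.64 ± 0.434 in topp4-1, 3.41 ± 0.515 in topp-7m and 2.95 ± 0.248 in the double mutant, against 3.52 ± 0.653 in wild type. Inactivation exceeded synthesis 1.57 to 2.45 times in pp1r3-2, 4.23 to 6.51 times in topp4-1, 3.06 to 3.66 times in topp-7m and 2.47 to 3.53 times in the double mutant, against 5.20 to 9.61 times in wild type. The pp1r3-2, topp-7m and double mutant libraries thus lay below the wild-type range of this ratio, and the topp4-1 libraries overlapped it. This order depends on the leading genes. With each gene weighted equally, as the difference of mean log2 levels, synthesis minus inactivation was -0.35 in pp1r3-2, -0.05 in topp4-1, -1.11 in topp-7m and -0.60 in the double mutant, against -0.94 in wild type. By this score topp4-1 was the highest and topp-7m lay below wild type, on the other side of it from the summed ratio. Genes at or near 0 counts, such as GA20OX3 and GA2OX7, weigh as much as the leading genes in it. Their log2 levels rest largely on the prior count of 2 added before the log. The sums and the score are of transcripts and say nothing of hormone amounts.

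**Figure D3:**
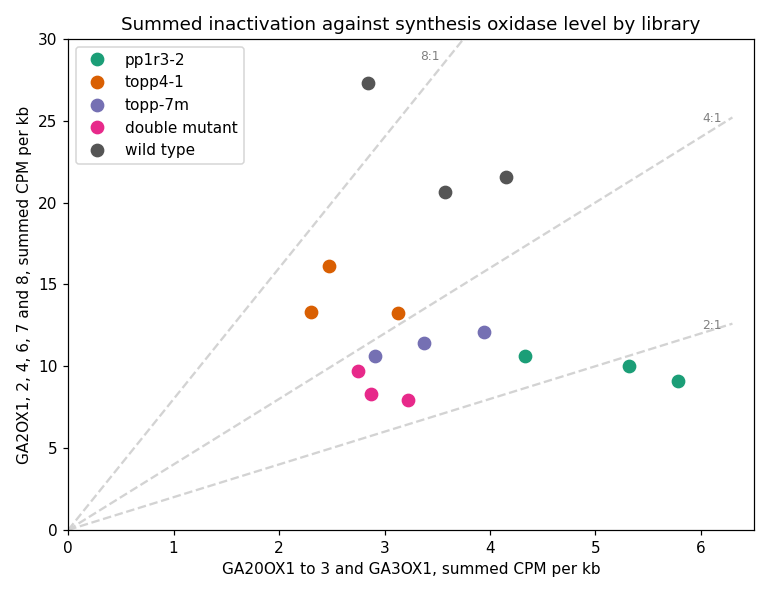
Summed level of the 6 inactivation genes (vertical axis) against that of the 4 synthesis genes (horizontal axis), both in CPM per kb, with 1 point per library and dashed lines at ratios of 2, 4 and 8. The 3 wild-type points lie highest, at 20.6 to 27.3 CPM per kb of inactivation genes, and the pp1r3-2 points lie farthest right, at 4.34 to 5.78 CPM per kb of synthesis genes.

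The double mutant shows how the topp4-1 changes stood in the pp1r3-2 background. Against topp4-1, 5 of the 7 tested genes were called in the double mutant (2 higher, 3 lower), beside 43.3% of all genes (21.4% higher, 21.9% lower). GA3OX1 was higher by 1.19 ± 0.27 (adjusted p = 0.00227) and GA2OX8 by 3.19 ± 0.54 (0.000185). GA2OX2 was lower by 1.86 ± 0.18 on the log2 scale (adjusted p = 1.31e-06), GA2OX4 by 3.39 ± 0.82 (0.0035), and GA20OX3 had no count in the double mutant. GA20OX3 and GA2OX4 reached the count minimum through topp4-1, where they were high, so their lower calls here are no support for a fall. GA2OX6 did not pass (0.22 ± 0.20, adjusted p = 0.385). Against pp1r3-2, 0 of the 7 genes were called in the double mutant by edgeR, where 0.0349% of all genes were called (0% higher, 0.0349% lower), and 0 by DESeq2. At an unadjusted p under 0.05 there was 1, GA3OX1 (-0.89 ± 0.25, unadjusted p = 0.00271, adjusted p = 0.417 in edgeR), whose 3 double mutant libraries lay below the 3 pp1r3-2 libraries. In this comparison the deviations of same-numbered libraries were positively correlated. Libraries of different number were not compared and the labels give no pairing, so whether the libraries are paired was not tested. Between same-numbered libraries, GA3OX1, GA2OX6 and GA2OX4 were lower and GA2OX8 higher in the double mutant each time. With the replicate number as a block in these 6 libraries, 0 of 5 tested oxidase genes were called by edgeR and 103 genes in all, against 7 without it, and 2 oxidase genes had an unadjusted p under 0.05, GA3OX1 (adjusted p = 0.0898) and GA2OX6 (adjusted p = 0.429).

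The difference itself was tested as an interaction, by subtracting the topp4-1 effect seen in wild type from that seen in pp1r3-2. It passed for 3 of the 7 tested genes (2 higher, 1 lower), beside 38.3% of all genes (19% higher, 19.3% lower). For GA2OX8 the effect was 0.37 ± 0.41 in pp1r3-2 and -3.75 ± 0.52 in wild type, a difference of 4.12 ± 0.67 (adjusted p = 0.000206). For GA2OX6 it was -0.32 ± 0.19 in pp1r3-2 and -1.76 ± 0.19 in wild type, a difference of 1.44 ± 0.27 (adjusted p = 0.000647). For GA2OX4, which reached the count minimum through topp4-1, it was -1.95 ± 0.94 in pp1r3-2 and 3.43 ± 0.82 in wild type, a difference of -5.38 ± 1.25 (adjusted p = 0.00325). GA3OX1 had effects of -0.89 ± 0.25 in pp1r3-2 and -1.17 ± 0.27 in wild type, and the difference of 0.28 ± 0.37 did not pass (adjusted p = 0.577). Neither did that of GA2OX2 (-0.47 ± 0.26, adjusted p = 0.161) or GA20OX1 (0.88 ± 0.88, adjusted p = 0.458). For GA20OX3, at 0 in both genotypes with pp1r3-2, no difference could be estimated.

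**Figure D4:**
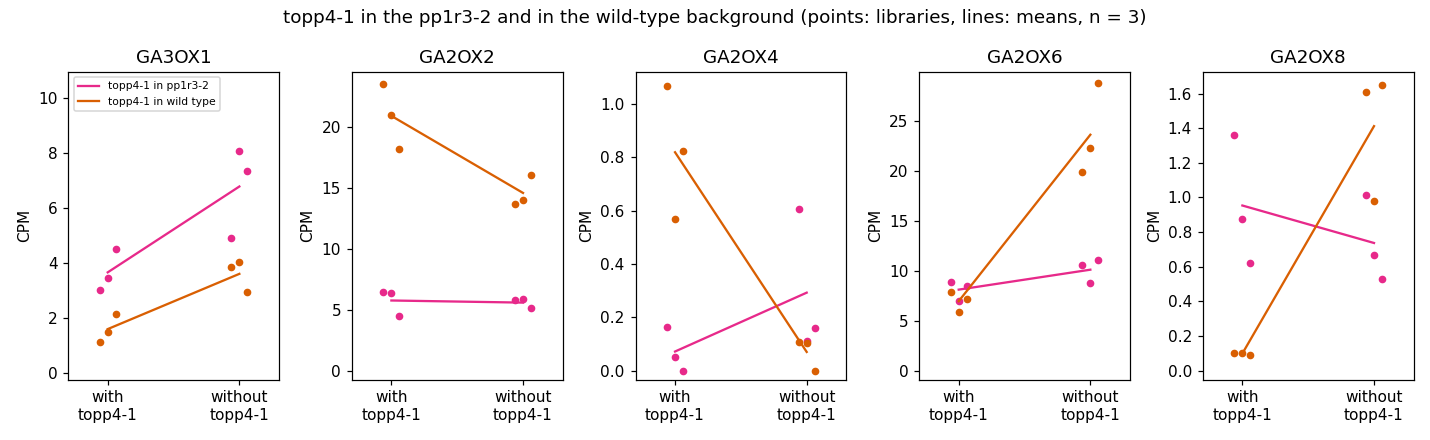
CPM of 5 gibberellin oxidase genes (vertical axis, a separate scale for each) with and without topp4-1, in the pp1r3-2 background (double mutant and pp1r3-2) and in the wild-type background (topp4-1 and wild type). Points are libraries and lines join the means, which are lower with topp4-1 in both backgrounds for GA3OX1 and cross for GA2OX4, GA2OX6 and GA2OX8.

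The lines named for TOPP genes were also compared with each other. In topp-7m against topp4-1, 4 of the 7 tested genes were called (2 higher, 2 lower), beside 37.8% of all genes (19.3% higher, 18.5% lower). GA3OX1 was higher in topp-7m by 1.40 ± 0.27 (adjusted p = 0.000836) and GA2OX8 by 3.35 ± 0.53 (0.000174). GA2OX2 was lower by 1.15 ± 0.18 on the log2 scale (adjusted p = 0.00013), and GA20OX3 had no count in topp-7m. The lower call of GA20OX3, which reached the count minimum through topp4-1, is no support for a fall. GA2OX6 did not pass (0.42 ± 0.19, adjusted p = 0.10), but passed with the replicate number as a block (0.0433) or without topp-7m replicate 2 (0.0249). GA2OX4 (-1.35 ± 0.64, adjusted p = 0.111) passed when these libraries were fitted alone (0.0465).

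Other gibberellin genes were counted by list, to be read against the shares of all genes called higher and lower, which were 10.9% and 8.33% in pp1r3-2, 27% and 26.5% in topp4-1, 6.18% and 5.46% in topp-7m and 7.66% and 5.47% in the double mutant. No other GA20OX or GA3OX gene could be tested: GA20OX4 had 0 counts in all libraries, GA20OX5, GA3OX3 and GA3OX4 at most 4 counts in a library, and GA3OX2 at most 15. GA2OX3 had at most 4 counts in a library. Of the 5 earlier synthesis genes, 1 rose in pp1r3-2, 2 in topp4-1, 1 in topp-7m and 0 in the double mutant, and none fell. KO, the kaurene oxidase gene, rose by 0.62 ± 0.09 in topp4-1 (adjusted p = 4.79e-05), to 44.0 ± 1.80 CPM, against 28.6 ± 0.913 CPM in wild type. Of the other inactivation genes, the P450 gene ELA1 fell by 2.38 ± 0.70 on the log2 scale in pp1r3-2 (adjusted p = 0.0265), with 0.0558 to 0.689 CPM, against 1.07 to 2.84 CPM in wild type, and the methyltransferase gene GAMT2 fell by 1.01 ± 0.34 in topp4-1 (adjusted p = 0.0212). Of the 3 receptor genes, all rose in topp4-1 and 1, GID1C, rose in each of pp1r3-2, topp-7m and the double mutant. GID1B had 50.3 to 53.7 CPM in topp4-1, against 23.2 to 32.0 CPM in wild type. Of the 5 DELLA genes, 1 rose and 2 fell in pp1r3-2, 2 fell in topp4-1, 2 fell in topp-7m and 1 fell in the double mutant.

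The gibberellin-responsive list of 5 genes had 0 calls in pp1r3-2, 1 higher and 1 lower in topp4-1, 1 lower in topp-7m and 2 higher in the double mutant, so in topp4-1 its share of calls was below the 53.5% of all genes. Higher and lower are transcript directions here, and the list was not sorted by how each gene responds to gibberellin. SCL3, which encodes a DELLA-interacting regulator, had 41.7 to 46.1 CPM in topp4-1, against 27.5 to 28.3 CPM in wild type (0.67 ± 0.09, adjusted p = 1.18e-05). GASA1, a gibberellin-regulated peptide gene, averaged 239 ± 66.9 CPM in topp4-1 and 941 ± 271 CPM in the double mutant, against 430 ± 148 CPM in wild type, with changes of -0.85 ± 0.31 (adjusted p = 0.0332) and 1.13 ± 0.31 (0.0296). It also averaged 732 ± 245 CPM in pp1r3-2, a change of 0.77 ± 0.31 that did not pass (adjusted p = 0.102). No gene of this list was called in the double mutant against pp1r3-2. Of the 3 genes for DELLA turnover and modification, SPY rose in topp4-1 (0.44 ± 0.10, adjusted p = 0.0012). Of the 3 transporter genes, NPF3.1 rose in topp4-1 (0.99 ± 0.17, adjusted p = 0.00021) and SWEET13 in topp-7m (1.82 ± 0.51, adjusted p = 0.0299).

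Among 12 genes reported to regulate oxidase genes, 11 were tested. In topp4-1 4 rose and 2 fell, close to the 53.5% of all genes called there, and in each of the other mutants 0 rose and 2 fell, where 19.3% of all genes were called in pp1r3-2, 11.6% in topp-7m and 13.1% in the double mutant. The 2 that fell in each were DDF1 and DDF2, listed in the count table as DREB1F and DREB1E, which encode transcription factors of the DREB1 family. DDF1 has been reported to activate GA2OX7 in Arabidopsis. DDF1 had 0 counts in pp1r3-2, 5, 7 and 6 counts in topp4-1, 3, 0 and 1 counts in topp-7m and 0 counts in the double mutant, against 14, 36 and 34 counts in wild type. DDF2 had 0 counts in all 12 mutant libraries, as GA2OX7 did, against 33, 39 and 28 counts in wild type. The adjusted p of DDF2 was 0.00115 in pp1r3-2, 0.000203 in topp4-1, 0.00184 in topp-7m and 0.00182 in the double mutant. DDF1 and DDF2 reached the count minimum through wild type alone, where they were high, so their p-values are no support for a fall. These comparisons also share the same wild-type libraries. The part of these factors in the GA2OX7 counts was not tested.

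**Figure D5:**
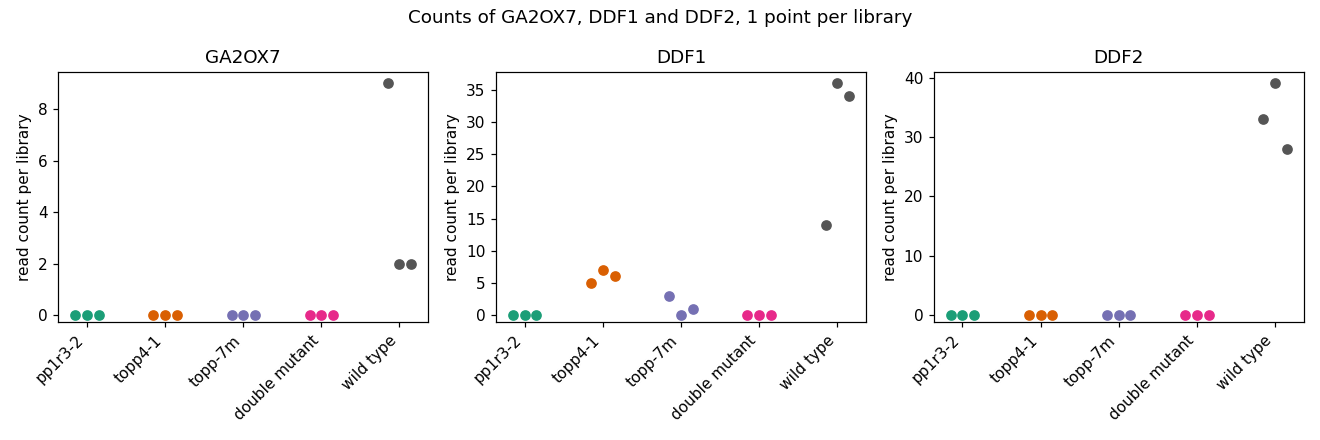
Read counts per library (vertical axis, a separate scale for each gene) of GA2OX7, DDF1 and DDF2 in the 5 genotypes. Wild-type libraries have 2 to 9 counts of GA2OX7 and 28 to 39 of DDF2, and all 12 mutant libraries have 0 of both.

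KNOX homeobox genes, which are expressed in the shoot meristem and have been reported to repress GA20OX1 and to raise GA2OX2 and GA2OX4, were among those that rose in topp4-1. KNAT1 had 15.3 to 18.8 CPM in topp4-1, against 2.09 to 3.51 CPM in wild type (2.59 ± 0.74, adjusted p = 0.011), and KNAT6 had 13.9 to 19.3 CPM in topp4-1, against 2.63 to 5.21 CPM in wild type (2.22 ± 0.51, adjusted p = 0.00257). KNAT2 (1.73 ± 0.60, adjusted p = 0.0236) and the DREB1 gene CBF1 (0.96 ± 0.35, adjusted p = 0.0293) also rose, and STM, at 3.20 to 8.50 CPM in topp4-1 and 2.20 to 4.73 CPM in wild type, did not pass. Of the 4 meristem markers 2 could be tested and 1 was called in topp4-1. Their summed level, which includes KNAT1, lay between 6.83 and 20.0 CPM in pp1r3-2, between 20.3 and 27.3 CPM in topp4-1, between 10.5 and 20.3 CPM in topp-7m and between 0.395 and 20.4 CPM in the double mutant, against 4.29 to 8.29 CPM in wild type. WUS was at 0 in all pp1r3-2, topp-7m and wild-type libraries, and CLV3 at 0 in all topp4-1 and double mutant libraries. Of the 5 flower markers 1, PI, could be tested, and it rose in pp1r3-2, topp4-1 and the double mutant. The summed flower markers were 0.948 to 2.33 CPM in pp1r3-2, 4.75 to 8.09 CPM in topp4-1, 0.676 to 1.94 CPM in topp-7m and 0.763 to 2.82 CPM in the double mutant, against 0.965 to 1.24 CPM in wild type. Most of the topp4-1 sum was PI, which averaged 5.24 CPM there and 0.229 CPM in wild type. AP1, AP3, AG and SEP3 each averaged 0.471 CPM or less in topp4-1 and overlapped wild type. Of the 4 leaf markers, 2 rose in pp1r3-2, 3 fell in topp4-1, 1 rose and 1 fell in topp-7m, and 3 rose in the double mutant. Leaf marker sums in topp4-1 were 10532 to 12225 CPM, against 15532 to 20533 CPM in wild type. The part of such tissue differences in the GA20OX3, GA2OX2 and GA2OX4 values was not tested. Without double mutant replicate 3, whose meristem marker sum was lowest, 2 oxidase genes were called in the double mutant against wild type, 5 against topp4-1 and 3 in the interaction. Over all genes, leaving out a library gave 1379 to 3008 calls in the double mutant against wild type. It gave 6961 to 9029 against topp4-1 and 6570 to 8576 in the interaction, so calls are also the background in these fits.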

How the data were processed

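For 15 leaf libraries the authors deposited unnormalized whole-number read counts for each gene. The submitters' processing notes name HISAT2 2.0.5. The sources used here do not give the counting tool, strand setting, build or annotation, so overlapping and antisense reads cannot be told apart. Of the identifiers, 32532 of the 32548 found in TAIR10.1 (99.95%) had the same coordinates there. The deposited gene length divided CPM where genes are compared.

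All genes passing filterByExpr (minimum count 10, total 15) were fitted with edgeR 4.0.16 in R 4.3.3 (TMM, robust quasi-likelihood, a mean per genotype, 15 libraries, 10 residual degrees of freedom), after a check on simulated data. A call is an adjusted p under 0.05 over 20037 genes, and SE is the size of the log2 change over the root of F. Replicate pairs differed by more than sampling noise (chi-square of 5.67 to 26.3 per gene). Alternatives were RLE scaling, other filters, DESeq2 1.42.0, the compared libraries alone, a replicate block and leaving out each library. Deviations of same-numbered pp1r3-2 and double mutant libraries were positively correlated (r of 0.217 to 0.447 in the 3 pairs). For the double mutant with wild type, r ran from -0.337 to 0.0408. Libraries of different number were not compared and the labels give no pairing, so these values do not establish one. All 10 members are named, with up to 4 genes per pathway list. Members and lists were chosen with earlier results of these data known. Intervals cover counting error only. Floors of 3 counts cover counting error of the group at 0 only and take the counts of the other group as exact.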

Additional observations from a re-analysis of the deposited data

Results flagged for a closer look

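The effect of topp4-1 on 3 gibberellin oxidase genes differed between the pp1r3-2 and the wild-type background by the test of the interaction in edgeR, among 6 genes for which it could be estimated, in a test that called 38.3% of all genes, so a share of the 6 is also the background. The difference, as a log2 value, was 4.12 for GA2OX8, 1.44 for GA2OX6 and -5.38 for GA2OX4. The 3 calls were kept when any of the 12 libraries involved was left out. GA2OX4 entered the test through topp4-1, where it was high, and rests on low counts, with 4 counts in all in the double mutant and 4 in wild type. Its adjusted p was 0.00325, and 0.0036 without a count minimum, and it was dropped by a filter of 1 CPM in 3 libraries.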

How the results depend on the processing

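The number of gibberellin oxidase genes called was within 1.5 times its value in every alternative except that 1 was called in topp-7m against wild type when the compared libraries were fitted alone (range 1 to 2 on leaving out a library, where GA2OX2 is lost), and 3 in the double mutant against topp4-1 under a filter of 1 CPM in 3 libraries, which drops GA20OX3 and GA2OX4. Of the called changes of single genes, none turned direction and 15 values lost the call. Turns of direction met uncalled values alone. In the double mutant against wild type, GA3OX1 was -0.0048 and GA2OX4 -0.006 with a replicate block, and leaving out a library gave -0.158 to 0.144 and -1.20 to 0.554. Leaving out a library gave GA20OX1 -0.413 to 0.407 in the double mutant and -0.108 to 0.771 in topp-7m, both against topp4-1. In the double mutant against pp1r3-2 it gave -0.62 to 0.485 for GA20OX1 and -0.0381 to 0.199 for GA2OX2. The replicate block otherwise changed 1 call, that of GA2OX6 in topp-7m against topp4-1. Outside the double mutant against pp1r3-2, at most 1 of 3 same-numbered correlations was over 0.1 for any compared genotypes. Of genotypes not compared here, 2 of 3 correlations were over 0.1 for pp1r3-2 with topp-7m and for topp-7m with the double mutant. They ran from 0.0341 to 0.320 and from -0.0029 to 0.514. In the double mutant against pp1r3-2, a block in the 6 compared libraries, an alternative chosen after seeing the data, changed no call of an oxidase gene and gave 103 calls over all genes. Over all genes, the number called was 3862 in pp1r3-2 against wild type (2388 to 3915 on leaving out a library), 2334 in topp-7m (1349 to 2361), 2631 in the double mutant (1379 to 3008, and 1342 with the compared libraries alone) and 7 in the double mutant against pp1r3-2 (2 to 12, 3 with the compared libraries alone and 59 by DESeq2). The log2 ratio of summed synthesis to inactivation was -0.95 in pp1r3-2, -2.44 in topp4-1, -1.75 in topp-7m and -1.55 in the double mutant, against -2.72 in wild type. As a mean of log2 levels, which weights low genes equally, it was -0.354, -0.0546, -1.11 and -0.60, against -0.942, so topp4-1 was then highest. Without division by length it was -2.82 in topp4-1 and -1.98 in topp-7m. GA20OX2, GA2OX1 and GA2OX7 are limited by depth, at 12 counts or fewer in every library.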

Other observations

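As a description over the 15 libraries, the tested genes whose log2 CPM was most like that of each gibberellin oxidase gene were ranked by Pearson's r, where the points share genotype. GA2OX2 was most like HIPP26 (r = 0.99), GA2OX8 like SAH7 (0.98), GA20OX3 like AT1G12180 (0.98), GA2OX6 like OCT6 (0.95), GA2OX4 like AT1G01725 (0.94), GA3OX1 like ATL76 (0.94) and GA20OX1 like MYB114 (0.83).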
